A study of Mus musculus with 16 samples.

Results

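The Hox genes of the mouse are homeodomain transcription factors. They were taken as every gene symbol made of Hox, a cluster letter from a to d and a paralog number, which gave 39 of the 22609 genes in the deposited count files: 11 in the Hoxa cluster, 10 in Hoxb, 9 in Hoxc and 9 in Hoxd. The genes of a cluster lie side by side on the chromosome in the order in which they are switched on along the body axis of the embryo, and members of different clusters with the same number are paralogs that share a position and much of their function. Low-numbered groups pattern the hindbrain and neck, middle groups the trunk, group 10 the lumbar level and the groups above it the sacrum, tail and limb tips. Many neurons of the cord and the ganglia keep part of this code in the adult.

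RNA was measured in 16 libraries from the dorsal root ganglia at L3 to L5 of males 8 to 16 weeks old. Per the labels' design text, a fluorescent tracer (wheat germ agglutinin) was injected into the paw 16 days after the last injection, ganglia were taken on day 18, and tracer-positive cells were sorted for RNA. The groups were mice with floxed Ltbr and Nav1.8-Cre given paclitaxel (PTX CKO), floxed mice given paclitaxel (PTX fl/fl), the CKO genotype given vehicle (vehicle CKO) and floxed mice given vehicle (vehicle fl/fl), with 4 libraries in each. Paclitaxel, a microtubule-binding chemotherapy drug, was given at 6 mg/kg in 3 intraperitoneal injections 2 days apart. The vehicle libraries are labelled Water, but the protocol text attached to each library, these included, describes paclitaxel alone, so the groups follow the treatment label and title.

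Nav1.8-Cre acts in neurons that express Scn10a, so every other sorted cell of a CKO mouse keeps its floxed alleles. The design text gives 3 per group, whereas 4 libraries of each were labelled, and the labels do not tie libraries to animals, so p-values measure only the spread between libraries. The titles of PTX libraries hold other dates than those of vehicle libraries. Each treatment has 2 title dates, and every date covers 2 libraries per genotype. Treatment and title date therefore cannot be told apart, and the titles do not say which step the date marks.

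The libraries held 7906504 to 11668007 counts in genes. The levels of Ltbr, the floxed gene, overlapped between genotypes: it stood at 5.88 to 28.4 CPM (read counts scaled by library size with TMM normalisation factors) in PTX CKO against 6.06 to 15.6 CPM in PTX fl/fl, and at 32.3 to 99.0 CPM in vehicle CKO against 42.4 to 51.4 CPM in vehicle fl/fl. These counts cover the gene as a whole and do not separate its floxed part, so they are no check of the deletion. Scn10a, the driver of Cre, had 284 to 1316 CPM in PTX libraries against 21.4 to 157 CPM in vehicle libraries. All 16 sensory neuron markers were present. Their summed share of counts was 0.854 to 2.32% in PTX libraries and 0.0914 to 0.758% in vehicle libraries. That of 14 neutrophil markers was 0.0315 to 12.0% in PTX libraries and 7.57 to 19.0% in vehicle libraries. Markers of myelinating Schwann cells took 0.261 to 0.524% in PTX libraries and 0.669 to 1.34% in vehicle libraries. Satellite glia markers took 0.485 to 2.97% in PTX libraries and 0.972 to 3.95% in vehicle libraries, and fibroblast markers 0.0113 to 0.0589% in PTX libraries and 0.0670 to 0.337% in vehicle libraries. The edgeR test of PTX against vehicle across all genes (adjusted p under 0.05) called 4.96% of all genes in fl/fl and 2.58% in CKO. It called 9 of 11 Schwann cell markers lower in fl/fl and 6 of 11 in CKO. Sensory neuron markers were called higher, 10 of 16 in fl/fl and 7 of 16 in CKO. Also called lower were satellite glia (5 and 1 of 12), fibroblast (5 and 3 of 11) and macrophage markers (2 and 0 of 11). Of mural, endothelial and neutrophil markers, 0 were called. In such mixed libraries, fewer cells of a type and less RNA per cell cannot be told apart.

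The start-site windows of 4 genes are printed because these genes frame the pattern described here: Hoxa7 had the highest level of the family, Hoxa10 the highest of the lumbar group, Hoxa11 lies next to Hoxa10 and had 0 counts, and Hoxd1 had the largest treatment difference relative to its error. The windows come from RefSeq on GRCm38.p6 and run 5′ to 3′ on the gene's strand, from 250 bases before to 50 bases after the start, with CG dinucleotides in capitals. Hoxa7 is at chr6:52218524-52218823 on the minus strand, Hoxa10 at chr6:52240805-52241104 on the minus strand (the window farthest upstream of 2), Hoxa11 at chr6:52245761-52246060 on the minus strand and Hoxd1 at chr2:74762730-74763029 on the plus strand.
Hoxa7: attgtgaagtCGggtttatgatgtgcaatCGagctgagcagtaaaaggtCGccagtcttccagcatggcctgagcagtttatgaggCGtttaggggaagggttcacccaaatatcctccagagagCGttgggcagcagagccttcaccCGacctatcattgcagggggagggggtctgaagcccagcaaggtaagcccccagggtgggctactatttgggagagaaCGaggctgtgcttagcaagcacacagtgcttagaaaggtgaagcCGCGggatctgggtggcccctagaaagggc
Hoxa10: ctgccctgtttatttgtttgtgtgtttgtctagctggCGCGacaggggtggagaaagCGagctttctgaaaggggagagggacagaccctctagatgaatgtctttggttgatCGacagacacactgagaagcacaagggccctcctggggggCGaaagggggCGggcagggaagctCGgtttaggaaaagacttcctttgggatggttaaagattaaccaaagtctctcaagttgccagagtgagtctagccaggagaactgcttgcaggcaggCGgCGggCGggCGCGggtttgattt
Hoxa11: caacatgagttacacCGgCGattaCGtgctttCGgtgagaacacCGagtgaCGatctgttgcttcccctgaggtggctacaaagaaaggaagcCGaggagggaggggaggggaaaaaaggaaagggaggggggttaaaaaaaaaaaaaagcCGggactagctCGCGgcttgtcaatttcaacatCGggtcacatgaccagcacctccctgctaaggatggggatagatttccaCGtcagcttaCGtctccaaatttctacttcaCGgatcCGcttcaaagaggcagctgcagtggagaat
Hoxd1: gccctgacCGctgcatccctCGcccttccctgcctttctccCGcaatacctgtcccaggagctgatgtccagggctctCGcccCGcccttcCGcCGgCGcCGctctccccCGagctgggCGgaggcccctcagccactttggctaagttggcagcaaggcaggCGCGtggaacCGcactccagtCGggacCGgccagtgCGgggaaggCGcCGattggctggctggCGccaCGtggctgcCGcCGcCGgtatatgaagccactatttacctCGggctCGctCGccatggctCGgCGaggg
The windows of Hoxa7, Hoxa10, Hoxa11 and Hoxd1 held 9, 12, 15 and 29 CG dinucleotides. The second Hoxa10 window, which is not printed, held 21. The window of Hoxa11, which had 0 counts, thus had more of them than that of Hoxa7 and lay between the 2 windows of Hoxa10. Over 24 windows of the 22 Hox genes that matched the RefSeq table, the median was 14.5, against 7.0 over all 32851 windows of the same length. CCAAT, on either strand, was in 62.5% of Hox windows and 37.4% of all windows. TATAAA was in 16.7% of Hox windows and 13.6% of all, and TGATTNAT, a motif of the Hox and cofactor type, in 8.33% of Hox windows and 3.22% of all. None of the 3 motifs was in the printed windows of Hoxa7, Hoxa10 and Hoxa11. The second Hoxa10 window held 1 TATAAA and 1 CCAAT match, and the Hoxd1 window held 1 CCAAT match. Such matches describe letters and not binding.

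The level of the family ended sharply between paralog groups 10 and 11. Group 10 summed to a mean of 28.4 CPM over the 16 libraries, whereas group 11 summed to 0.20 CPM, group 12 to 0 CPM and group 13 to 0.01 CPM. Of the 39 genes, 32 had a count in some library, 24 averaged at least 1 CPM, 7 averaged at least 10 CPM and 9 had a count in all 16 libraries. The 9 were Hoxa7, Hoxa9, Hoxa10, Hoxb2, Hoxb3, Hoxb5, Hoxb7, Hoxc8 and Hoxc9. A library held counts for 18 to 30 Hox genes, whose levels summed to 102 to 286 CPM.

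The 7 genes at 0 counts everywhere were Hoxa11, Hoxa13, Hoxb1, Hoxb13, Hoxc12, Hoxc13 and Hoxd12. A floor of 3 counts over all 16 libraries allows each a level of up to 0.0189 CPM, and this limit covers counting error only. Apart from Hoxb1, a hindbrain gene, these belong to groups 11 to 13, which pattern the sacrum, the tail and the ends of the limbs. The remaining members of those groups were close to 0. Hoxd11 had 1.25, 0.527, 0 and 0.406 CPM in PTX fl/fl, 0.295, 0.380, 0 and 0 CPM in PTX CKO and 0 CPM in all 8 vehicle libraries. Hoxc11 had 5 counts in 1 vehicle fl/fl library, and Hoxd13 had 1 count in 1 PTX CKO library. Hoxd11 was thus seen in 5 libraries, all of them PTX libraries, with 32 counts in all, too few for the test across genes.

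**Figure D1:**
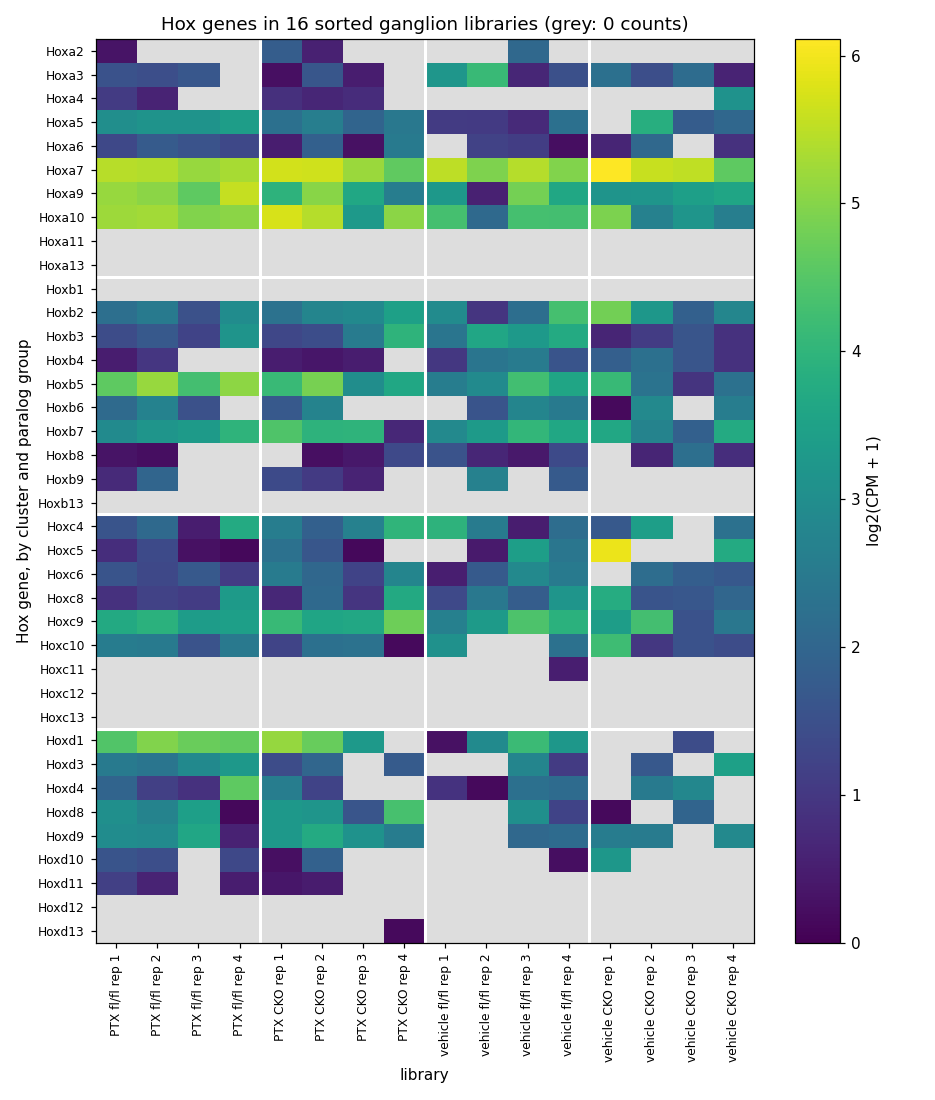
Level of 38 of the 39 Hox genes (rows, by cluster and paralog group) in each of the 16 libraries (columns, by group) as log2(CPM + 1), with grey for 0 counts. Hoxa7, Hoxa9 and Hoxa10 form the brightest rows of the Hoxa block, and every cluster turns grey above paralog group 10 apart from a few low values.

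Among the clusters, Hoxa gave 47.1% of a library's Hox counts on average (range 35.3 to 67.4%), Hoxb 21.8% (13.7 to 34.3%), Hoxc 17.2% (7.60 to 36.0%) and Hoxd 13.9% (0.799 to 26.7%). By paralog group, the largest sums were those of group 7 at 50.8 CPM, group 9 at 35.9 CPM, group 10 at 28.4 CPM and group 5 at 25.5 CPM. Per kb of transcript, taken from GENCODE M21 rather than the gene models used for counting, Hoxa7 led the family with a mean of 20.2 CPM per kb. It was followed by Hoxa10 at 9.21, Hoxb7 at 7.92, Hoxb5 at 7.86, Hoxd1 at 6.80, Hoxa9 at 5.52, Hoxc9 at 5.09 and Hoxb2 at 4.52 CPM per kb. The gap between Hoxa7 and Hoxa10 was the largest step in this order. The neighbours Hoxb7 and Hoxb5 differed by much less than their spread between libraries. Scaling by coding length moved Hoxa9 to second place at 21.9 CPM per coding kb. Scaling by the joined exons of all coding transcripts put Hoxa10 at rank 4 with 7.52 CPM per kb, below Hoxb7 at 7.92 and Hoxb5 at 7.86.

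**Figure D2:**
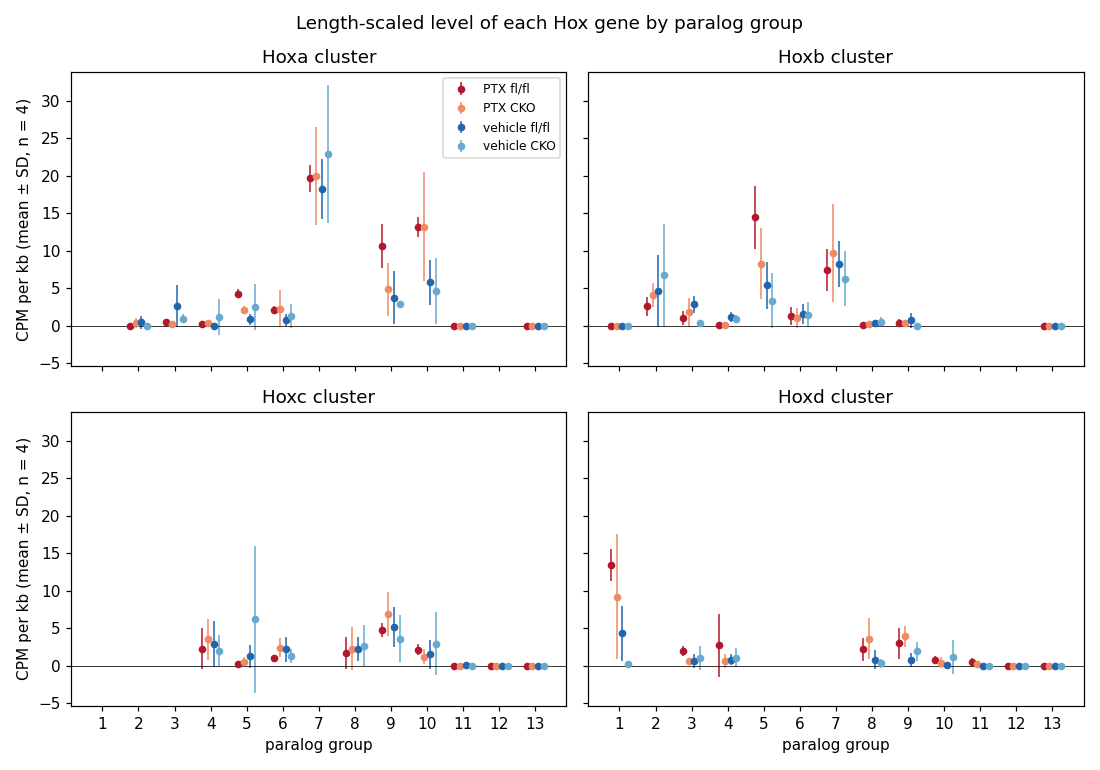
Level of 38 Hox genes in CPM per kb of transcript against its paralog group, with 1 panel per cluster; points are group means and bars are SD over 4 libraries. Hoxa7 stands highest, Hoxa10 and Hoxa9 follow within the same cluster, and no cluster has a level above group 10 that can be told from 0 on this scale.

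The 8 most abundant members and the genes of group 10 were read library by library. Hoxa7, a trunk-level gene, had 43.1, 41.4, 34.9 and 38.6 CPM in PTX fl/fl and 50.9, 50.3, 35.5 and 23.6 CPM in PTX CKO. It had 44.6, 29.3, 42.4 and 30.3 CPM in vehicle fl/fl, next to 68.2, 47.5, 45.0 and 23.0 CPM in vehicle CKO. All 4 groups overlapped, and no library lacked the gene. Its mean CV within groups was 25.9%, the lowest of the 27 Hox genes tested, whose median was 95.3%. The median over all 14200 genes tested was 57.6%, with mean levels that reach far above those of the Hox genes. Over the 9132 tested genes within the Hox range of mean CPM, the median was 73.9%.

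Hoxa10, whose paralog group sets lumbar identity, had 36.0, 37.4, 29.8 and 32.2 CPM in PTX fl/fl, against 18.7, 3.28, 18.8 and 18.6 CPM in vehicle fl/fl. In CKO mice it had 52.2, 42.5, 8.97 and 32.0 CPM after PTX, against 28.8, 5.42, 8.18 and 5.11 CPM after vehicle. The fl/fl groups did not overlap, and in CKO the third PTX library fell among the vehicle values. The other group 10 genes were far lower. Hoxc10, which acts in lumbar motor neurons, had 4.90, 4.75, 1.94 and 4.57 CPM in PTX fl/fl, against 7.54, 0, 0 and 3.83 CPM in vehicle fl/fl. It had 1.38, 3.80, 3.92 and 0.119 CPM in PTX CKO, against 17.6, 0.996, 1.92 and 1.67 CPM in vehicle CKO. Its groups overlapped in both genotypes. Hoxd10 had 1.99, 1.76, 0 and 1.52 CPM in PTX fl/fl, against 0, 0, 0 and 0.166 CPM in vehicle fl/fl. It had 0.197, 2.75, 0 and 0 CPM in PTX CKO, against 8.42, 0, 0 and 0 CPM in vehicle CKO. The first vehicle CKO library was thus the highest of all 16 for both Hoxc10 and Hoxd10.

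The group 9 genes Hoxa9 and Hoxc9 act at trunk levels, and Hoxc9 fixes thoracic motor neuron identity in the mouse. Hoxa9 had 35.3, 32.1, 23.4 and 46.4 CPM in PTX fl/fl, against 8.52, 0.468, 27.7 and 11.4 CPM in vehicle fl/fl. It had 14.6, 31.6, 11.4 and 5.01 CPM in PTX CKO, against 7.97, 8.19, 9.97 and 11.0 CPM in vehicle CKO. Of the 4 PTX fl/fl libraries, 3 exceeded every vehicle value of Hoxa9. Hoxc9 had 12.0, 14.1, 9.40 and 9.85 CPM in PTX fl/fl, against 5.35, 9.13, 20.1 and 14.1 CPM in vehicle fl/fl. It had 16.4, 11.1, 11.7 and 26.0 CPM in PTX CKO, against 9.54, 18.5, 1.92 and 4.38 CPM in vehicle CKO. The Hoxc9 groups overlapped in both genotypes.

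Hoxb5 and Hoxb7 are middle members of their cluster, and Hoxb2 is a hindbrain gene. Hoxb5 had 23.3, 35.1, 18.4 and 32.7 CPM in PTX fl/fl, against 5.03, 6.56, 18.2 and 11.1 CPM in vehicle fl/fl. It had 16.5, 27.8, 7.01 and 11.5 CPM in PTX CKO, against 16.5, 3.98, 0.895 and 3.86 CPM in vehicle CKO. The fl/fl groups were separated only narrowly, between 18.4 and 18.2 CPM. Hoxb7 had 6.64, 8.09, 8.99 and 14.8 CPM in PTX fl/fl, against 6.34, 9.13, 15.6 and 11.4 CPM in vehicle fl/fl. It had 20.6, 14.4, 14.6 and 0.597 CPM in PTX CKO, against 11.7, 5.64, 2.68 and 12.4 CPM in vehicle CKO. Hoxb7 overlapped throughout, and the fourth PTX CKO library was its lowest value. Hoxb2 had 3.74, 4.75, 1.84 and 6.81 CPM in PTX fl/fl, against 6.66, 0.937, 3.62 and 18.7 CPM in vehicle fl/fl. It had 3.94, 5.88, 6.50 and 10.1 CPM in PTX CKO, against 27.3, 8.41, 2.68 and 5.94 CPM in vehicle CKO. The 2 highest Hoxb2 values of the series were in vehicle libraries, and all groups overlapped.

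Hoxd1, which in mice takes part in the wiring of pain-sensing neurons, differed most between libraries among these 8. It had 20.8, 30.2, 25.4 and 23.9 CPM in PTX fl/fl, against 0.219, 6.56, 16.9 and 8.48 CPM in vehicle fl/fl. It had 34.6, 25.0, 8.87 and 0 CPM in PTX CKO, against 0, 0, 1.66 and 0 CPM in vehicle CKO. The fl/fl groups did not overlap. In CKO they did, since the fourth PTX library held no Hoxd1 count.

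**Figure D3:**
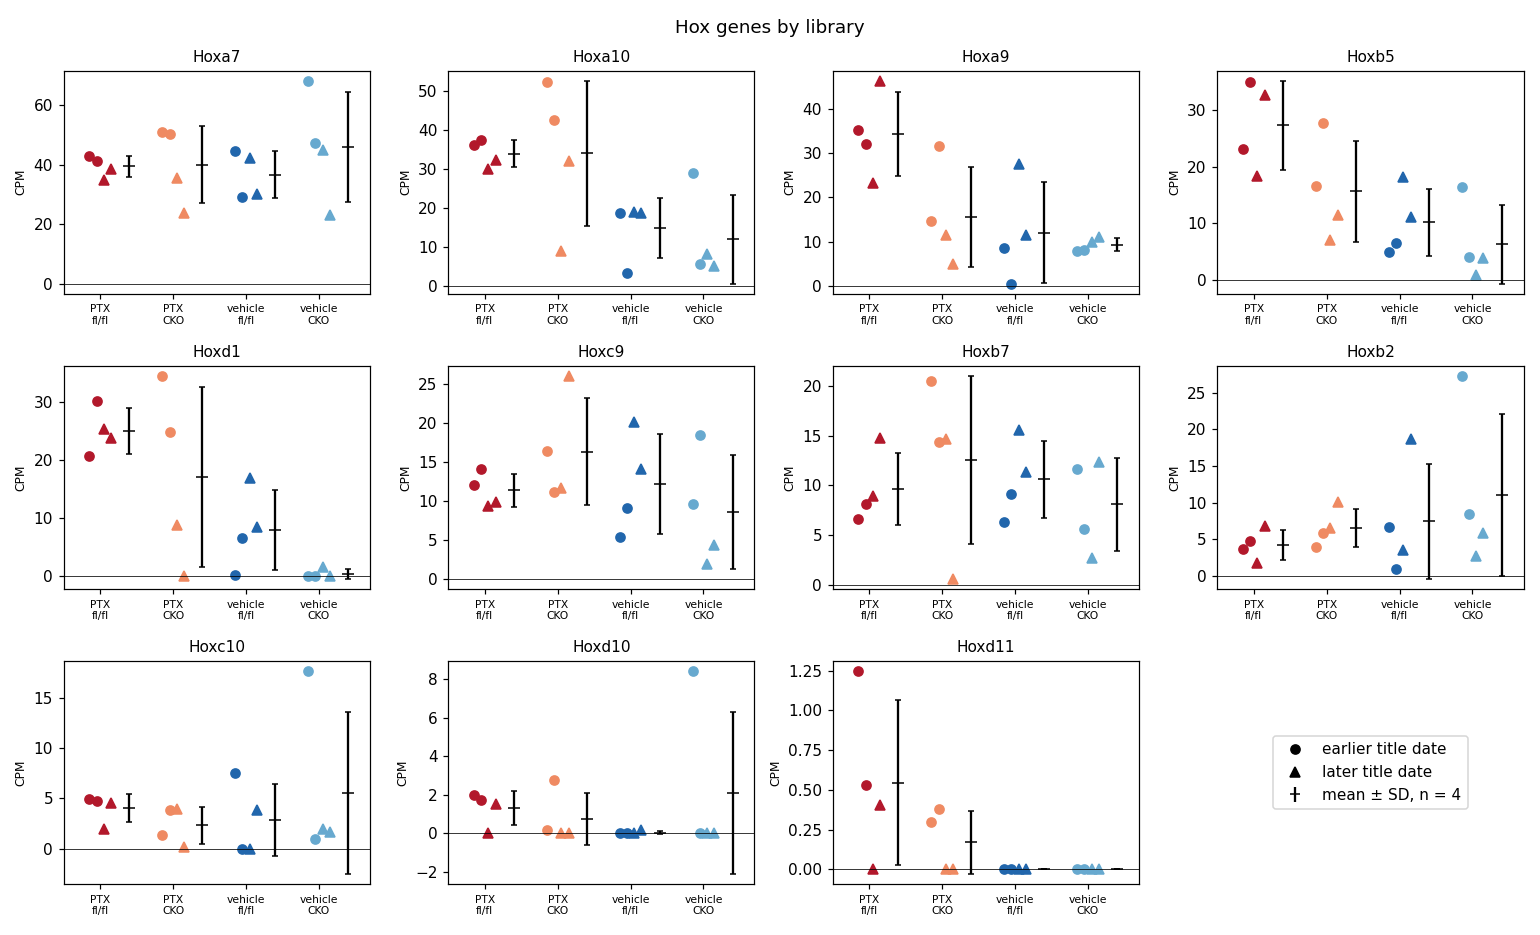
CPM of 11 Hox genes in every library, by group; circles are the earlier and triangles the later title date of each treatment, and black marks are the mean ± SD over 4 libraries. Hoxa7 overlaps in all groups, Hoxa10 and Hoxd1 lie higher in PTX fl/fl than in vehicle fl/fl in every library, and Hoxd11 is above 0 in PTX libraries alone.

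No Hox gene passed the test of PTX against vehicle in fl/fl mice (edgeR quasi-likelihood test, adjusted p under 0.05 over 14200 genes), where 4.96% of all genes did. None of the 27 had an unadjusted p under 0.05, against 19.5% of all genes. DESeq2 also called 0, without its share over all genes given here. With quality weights, limma-voom called 7, where it called 5283 of all 14200 genes. Hoxa9 (adjusted p = 0.0322) and Hoxb5 (0.0479) were among the 7; their adjusted p ran up to 0.755 and 0.833 over 18 alternatives. The 27 fold changes were split 14 positive and 13 negative, with a median log2 fold change of 0.11 against -0.01 over all genes tested. Hoxa7 had the narrowest interval: its log2 fold change was 0.11 ± 0.38 (SE), with a 95% interval of -0.69 to 0.91. Hoxa10 had a log2 fold change of 1.19 ± 0.69 (adjusted p = 0.378), Hoxa9 of 1.51 ± 0.82 (adjusted p = 0.334), Hoxb5 of 1.42 ± 0.80 (adjusted p = 0.354) and Hoxd1 of 1.64 ± 1.48 (adjusted p = 0.595).

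Read by overlap, 5 genes were higher in all 4 PTX fl/fl libraries than in any vehicle fl/fl library, against 11.0% of all genes, and 2 were lower in all, against 7.80%. The 5 higher genes were Hoxa5, Hoxa6, Hoxa10, Hoxb5 and Hoxd1, and the 2 lower were Hoxb4 and Hoxb8, named after their values were seen. Hoxa5, which patterns the neck and upper trunk, had 7.06 to 9.65 CPM in PTX fl/fl against 0.659 to 3.74 CPM in vehicle fl/fl. Hoxb4, a gene of the neck level, had 0 to 0.967 CPM in PTX fl/fl against 0.983 to 4.86 CPM in vehicle fl/fl. The shares of members, 5 and 2 of 27, are to be read against these backgrounds.

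In CKO mice, 0 Hox genes passed the edgeR test of PTX against vehicle, where 2.58% of all genes did. Hoxa10, Hoxb9 and Hoxd1 (3 of 27) had an unadjusted p under 0.05, against 19.7% of all genes. DESeq2 called 1 and limma-voom called 2. The share of all genes that each of these tools called here is not given, so these counts are not a result about the family. Hoxd1 had the smallest adjusted p of the family: its log2 fold change was 5.36 ± 1.77 (95% interval 1.61 to 9.10), with an adjusted p of 0.109. It was called by DESeq2 (adjusted p = 0.00920), by limma-voom (0.0321), with title date as a block (0.0381) and without the later PTX date (0.0360), over a range of adjusted p from 0.00920 to 0.682 in 18 alternatives. Hoxa10 had a log2 fold change of 1.51 ± 0.70 (adjusted p = 0.241) and Hoxa7 of -0.20 ± 0.38 (95% interval -0.99 to 0.60). The median of the 27 was -0.07, against 0.02 over all genes tested, and was the same with Hoxb9, at 0 in every vehicle CKO library, set to its lower bound. Hoxb4 was lower in all 4 PTX libraries than in any vehicle library, as were 4.54% of all genes. No member was higher in all of them, as 8.91% of all genes were. Hoxb4 had 0 to 0.413 CPM in PTX CKO against 0.834 to 3.76 CPM in vehicle CKO. Its log2 fold change was -3.02 ± 1.58 (adjusted p = 0.310) in CKO and -3.07 ± 1.58 (adjusted p = 0.304) in fl/fl.

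**Figure D4:**
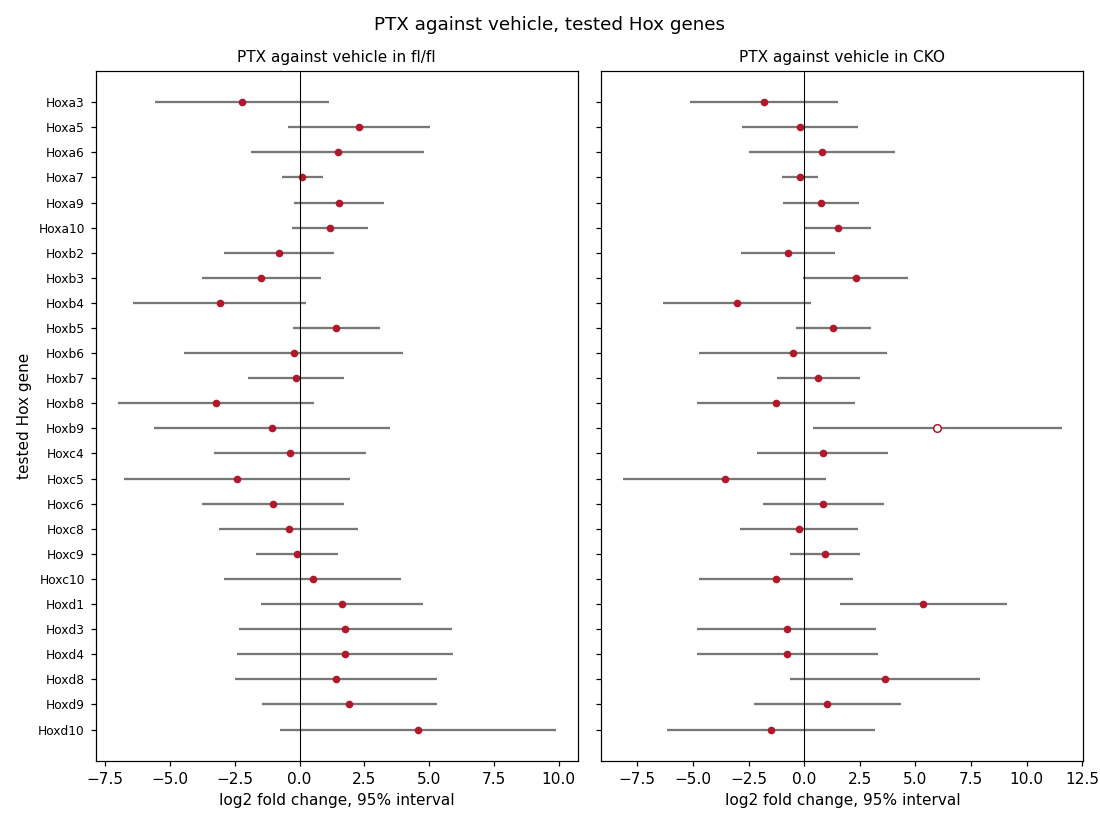
Fitted log2 fold change of PTX against vehicle with its 95% interval for 26 of the 27 tested Hox genes, in fl/fl (left) and CKO (right); open circles mark a gene with 0 counts in every vehicle library, whose fitted value is no bound. The Hoxa7 interval is the narrowest in both panels. In CKO the intervals of Hoxd1 (1.61 to 9.10), Hoxa10 (0.037 to 2.99) and Hoxb9 (0.41 to 11.6) lie above 0 before adjustment.

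The Hoxd cluster took a larger part of the Hox counts after PTX in both genotypes. Its share was 19.2 to 26.7% in PTX fl/fl libraries against 0.799 to 16.2% in vehicle fl/fl libraries, and 13.7 to 22.4% in PTX CKO against 4.75 to 12.97% in vehicle CKO. The shares did not overlap within either genotype. The summed level was 51.9 ± 5.3 CPM in PTX fl/fl and 15.7 ± 15.8 CPM in vehicle fl/fl; it was 39.3 ± 19.6 CPM in PTX CKO and 13.1 ± 2.5 CPM in vehicle CKO (SD, n = 4 each). Without Hoxd1, the ranges met: 20.0 to 34.1 CPM in PTX fl/fl against 0.117 to 20.1 CPM in vehicle fl/fl, and 9.80 to 27.9 CPM in PTX CKO against 9.08 to 16.5 CPM in vehicle CKO. Hoxd8 and Hoxd9 were at 0 in 2 vehicle fl/fl libraries each. These are descriptions with no test. Sensory neuron markers were higher, and myelinating Schwann cell and fibroblast markers lower, in every PTX library than in any vehicle library, and whether the Hoxd values follow them was not tested.

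Of the other clusters, Hoxa was also separated by treatment in fl/fl on the CPM scale, at 99.98 to 128.4 CPM in PTX fl/fl libraries against 51.99 to 94.5 CPM in vehicle fl/fl libraries, though its share of the Hox counts overlapped. In CKO its sums overlapped. Hoxa summed to 119.9 ± 13.4 CPM in PTX fl/fl and 73.4 ± 18.4 CPM in vehicle fl/fl; in CKO it summed to 98.6 ± 39.5 CPM in PTX CKO and 78.3 ± 23.7 CPM in vehicle CKO. Hoxb summed to 48.6 ± 14.7 CPM in PTX fl/fl and 46.7 ± 17.5 CPM in vehicle fl/fl, and to 44.1 ± 10.0 CPM in PTX CKO and 33.0 ± 18.6 CPM in vehicle CKO. Hoxc summed to 25.3 ± 9.0 CPM in PTX fl/fl and 32.1 ± 8.7 CPM in vehicle fl/fl, and to 35.1 ± 16.4 CPM in PTX CKO and 43.2 ± 40.8 CPM in vehicle CKO (SD, n = 4 throughout). In CKO that order rested on the first vehicle library, at 102.1 CPM: without it the vehicle CKO mean was 23.6 CPM, below that of PTX CKO. On the CPM scale the differences in Hoxb and Hoxc were within the spread between libraries. As a share of the Hox counts, however, Hoxc was lower without overlap in fl/fl, at 7.60 to 12.9% in PTX fl/fl against 17.2 to 21.4% in vehicle fl/fl, while in CKO it overlapped, at 9.45 to 30.4% in PTX CKO against 8.36 to 36.0% in vehicle CKO. All Hox genes together summed to 245.8 ± 36.0 CPM in PTX fl/fl and 167.8 ± 49.1 CPM in vehicle fl/fl, and to 217.2 ± 64.6 CPM in PTX CKO and 167.7 ± 80.6 CPM in vehicle CKO.

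**Figure D5:**
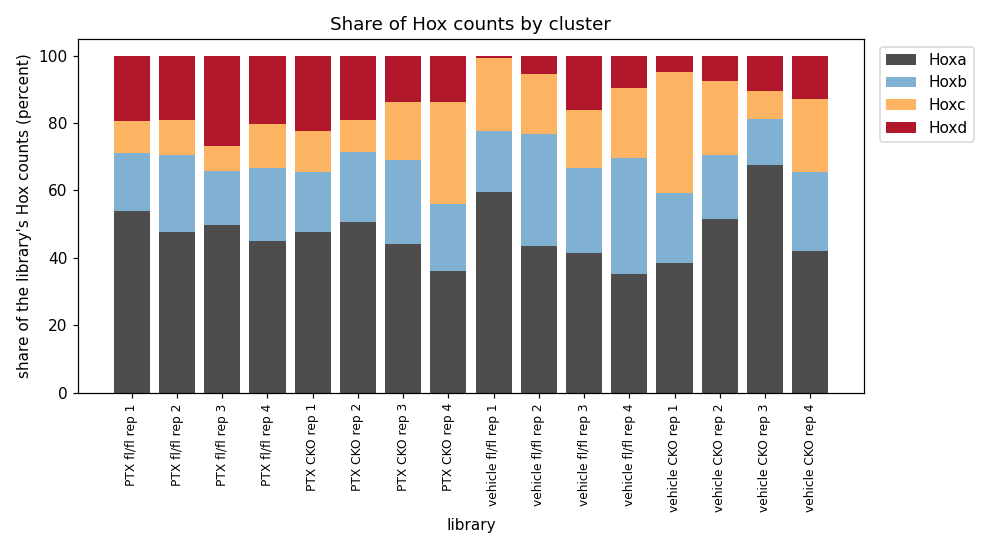
Share of each library's Hox counts taken by the 4 clusters, in percent, with PTX libraries on the left and vehicle libraries on the right. The Hoxd part is 13.7 to 26.7% in PTX libraries and 0.799 to 16.2% in vehicle libraries.

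Genotype gave no Hox call either. After PTX, 0 of 27 Hox genes passed for CKO against fl/fl (0.00% of all genes), 0 had an unadjusted p under 0.05 (1.87% of all genes), and DESeq2 and limma-voom called 0. After vehicle, 0 passed (0.0211% of all genes), 4 had an unadjusted p under 0.05 (4.61% of all genes), and DESeq2 and limma-voom called 0. Hoxb3, Hoxb9 and Hoxd1 were among the 4. The shares of all genes that DESeq2 and limma-voom called between genotypes are not given, so their 0 calls are not read further. Hoxb3, a hindbrain gene, had 0.561 to 2.05 CPM in vehicle CKO against 4.15 to 12.3 CPM in vehicle fl/fl, with a log2 fold change of -3.00 ± 1.15 (adjusted p = 0.958). It was lower in every CKO library, as were 1.68% of all genes, and no member was higher in every one (0.810% of all genes). After PTX, Hoxa5 and Hoxd3 were lower in all CKO libraries, against 1.37% of all genes, and 0 were higher (0.690%). Hoxa5 had 2.89 to 5.12 CPM in PTX CKO against 7.06 to 9.65 CPM in PTX fl/fl, and Hoxd3 had 0 to 3.04 CPM in PTX CKO against 4.22 to 8.53 CPM in PTX fl/fl. The Hoxa7 difference after PTX was 0.02 ± 0.38 (95% interval -0.78 to 0.82).

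The interaction of genotype and treatment, the test of whether the PTX difference depended on genotype, called 0 of 27 Hox genes (0.00704% of all genes). With an unadjusted p under 0.05 there were 2, against 3.35% of all genes. DESeq2 and limma-voom called 0, without their shares over all genes. The 2 were Hoxb3, with an interaction of 3.79 ± 1.56 on the log2 scale, and Hoxb9. The Hoxd1 interaction was 3.72 ± 2.15 (adjusted p = 1.00), so its PTX differences in the 2 genotypes were not shown to differ.

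By title date, 6 Hox genes were lower in all 4 libraries of the later PTX date than in any of the earlier, against 12.7% of all genes, and 0 were higher (9.75%). Hoxa7, Hoxa10, Hoxb6, Hoxb9 and Hoxc5 were among the 6 lower genes. Hoxa7 had 23.6 to 38.6 CPM on the later date against 41.4 to 50.9 CPM on the earlier, and Hoxa10 had 8.97 to 32.2 CPM on the later date against 36.0 to 52.2 CPM on the earlier. The log2 difference was -0.49 ± 0.36 (adjusted p = 0.559) for Hoxa7 and -0.72 ± 0.70 (adjusted p = 0.689) for Hoxa10. edgeR called 0 of the 27 (7.40% of all genes) with 1 at an unadjusted p under 0.05 (18.4%). DESeq2 called 0 and limma-voom 2, without their shares over all genes, so these counts are not read further. The cell markers moved with date too, since sensory neuron markers took 0.854 to 1.19% of counts on the later PTX date and 1.88 to 2.32% on the earlier, and neutrophil markers took 5.48 to 12.0% on the later date and 0.0315 to 1.05% on the earlier. Whether the Hox values follow them was not tested.

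Within vehicle, edgeR called 0 Hox genes between dates (0.0493% of all genes) with 1 at an unadjusted p under 0.05 (6.30%). DESeq2 called 1 and limma-voom 0, again without their shares over all genes. The call of DESeq2 was Hoxd8 (adjusted p = 0.0206), with 7.25, 1.33, 2.94 and 0 CPM on the later date and 0, 0, 0.112 and 0 CPM on the earlier. Hoxa9 was higher in all libraries of the later date, against 1.94% of all genes, and 0 were lower (0.754%). It had 9.97 to 27.7 CPM on the later date and 0.468 to 8.52 CPM on the earlier.

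Some members had much of their level in a single library. Of the 32 with a count, 14 had at least 25% of their summed CPM in 1 library, and 6 had over 50%. Among the 6, Hoxc11 (5 counts) and Hoxd13 (1 count) were seen in 1 library only, which sets their share at 100%. Shares for other genes of like level are not given, so this is not shown to be a trait of the family. Hoxc5 had 60.0 CPM in the first vehicle CKO library, 62.9% of its summed level, against 12.3 CPM in its next highest library. Hoxa4 had 67.7% of its level in the fourth vehicle CKO library, and Hoxd4 had 43.2% of its level in the fourth PTX fl/fl library, at 23.1 CPM. Hoxc10, Hoxd10, Hoxb2, Hoxc8 and Hoxa7 also had their highest value in the first vehicle CKO library.

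By median, the order of the 32 detected genes differed less within the PTX groups than within the vehicle groups, with ranges that overlapped. Spearman's rho of their levels, a correlation across genes in pairs of libraries that also share gene lengths, had a median of 0.85 within PTX fl/fl, 0.71 within PTX CKO, 0.66 within vehicle fl/fl and 0.44 within vehicle CKO. Pairs within PTX CKO ran from 0.53 to 0.79 and pairs within vehicle fl/fl from 0.45 to 0.76. Between PTX and vehicle libraries the median of 64 pairs was 0.54. The group means of PTX fl/fl and PTX CKO had a rho of 0.92, and those of vehicle fl/fl and vehicle CKO a rho of 0.69. PTX libraries held 1323 to 2970 Hox counts and vehicle libraries 801 to 2766, and whether rho follows these counts was not tested. Genes are not independent replicates, so these are descriptions.

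Hox proteins bind DNA with TALE cofactors, and their genes are held silent by Polycomb and kept active by Trithorax and MLL proteins. A list for TALE cofactors and for Pbxip1, which binds such cofactors, held 10 genes, all tested. Of these, 1 rose after PTX in fl/fl and 0 fell, a share to be read against the 4.96% of all genes called there. That was Pknox2, with 96.6 to 168 CPM in PTX fl/fl against 0.937 to 20.0 CPM in vehicle fl/fl (log2 fold change 3.79 ± 0.80, adjusted p = 0.0138). In CKO its log2 fold change was 2.05 ± 0.74 (adjusted p = 0.141). The Pknox2 interaction of genotype and treatment was -1.74 ± 1.02 and was not called, so the 2 genotypes were not shown to differ. Of 30 Polycomb genes, 0 were called by edgeR in any of the 7 comparisons, with Rbbp4 and Rbbp7, histone-binding subunits, the most abundant at 123 and 110 CPM. Of 15 Trithorax and MLL genes, 0 were called by treatment or genotype. On the later PTX date, 4 of them rose, where 7.40% of all genes were called, namely Mll2, Mll3, Mll5 and Kdm6b. Of the 10 genes of the TALE list, 2 were called higher on that date and 0 lower, with Pbxip1 among the 2. Kdm6b, a demethylase of the Polycomb mark, had a log2 difference of 2.25 ± 0.35 (adjusted p = 0.00103).

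Neighbours of the clusters and upstream signals were read the same way. Lnp, which encodes the endoplasmic reticulum protein lunapark and lies beside the Hoxd cluster, rose in fl/fl, with 83.7 to 140 CPM after PTX against 33.8 to 44.6 CPM after vehicle (log2 fold change 1.50 ± 0.30, adjusted p = 0.0123). In CKO its log2 fold change was 0.16 ± 0.30 (adjusted p = 0.817). Lnp was not called for the interaction of genotype and treatment, so its PTX differences in the 2 genotypes were not shown to differ. It was 1 of 3 tested genes in a list of 11 caudal and limb position genes, in which Cdx2, Cdx4, Pitx1, Tbx5 and Evx2 had 0 counts. Its call in fl/fl is to be read against the 4.96% of all genes called there. Tbx4, the hindlimb T-box gene, had 29 counts in 2 libraries. Of 13 tested retinoic acid genes, which act upstream of Hox genes in the embryo, 0 were called by edgeR. Their median log2 fold changes for PTX against vehicle were -1.14 in fl/fl and -0.66 in CKO. Over all genes tested, the medians were -0.01 in fl/fl and 0.02 in CKO. Of 17 noncoding RNAs listed for the clusters, 7 were in the files, 4 had a count and 0 were tested. Hoxa11as, the antisense RNA of Hoxa11, had 54 counts in the first vehicle fl/fl library and 0 elsewhere, while Hoxa11 had 0 everywhere. The strand setting used in counting is not given in the sources used here, so reads of this pair cannot be told apart.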

How the data were processed

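Values were whole-number counts per gene and library, deposited by the authors as 16 files with 22609 genes each. Per the submitters' processing notes, the tools were bcl2fastq, TopHat2 and HTSeq with the mm9 build; versions, strand setting and parameters are not given in the sources used here. Per the labels' protocols, stranded poly(A) libraries were made from about 500 ng RNA and read as 50-base single ends. HTSeq's 5 summary lines were left out; genes took 32.9 to 43.5% of all reported reads, and 39.5 to 44.2% were not uniquely aligned, which can lower genes with near-identical copies.

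The Hox genes, lists, tests and alternatives were chosen with earlier results of these data known. Genes passing filterByExpr (14200, of them 27 Hox genes) were tested in edgeR 4.0.16 with TMM factors, robust quasi-likelihood fits of 4 group means over 16 libraries and Benjamini-Hochberg adjustment; 12 Hox genes were too low. The date comparisons added 2 date terms. SE is the fold change over the root of F. Alternatives used R 4.3.3, DESeq2 1.42.0 and limma 3.58.1. Scripts were tested on simulated data. No libraries were identical. Named genes were the 8 with the highest mean CPM, group 10 to 13 genes with at least 10 counts, and any called gene. In PTX libraries, deviations of same-numbered libraries of the 2 genotypes correlated at 0.43, 0.48, 0.47 and 0.23, a check made from the values. Same-numbered libraries also share a title date, and 5 of 8 matched their own number best. Pairing by number and a shared date therefore cannot be told apart. In each other comparison of 2 groups, not all 4 correlations were over 0.1. Results for 2 genes are not reported here, and the counts over the family and the lists include them.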

Additional observations from a re-analysis of the deposited data

Results flagged for a closer look

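Of 64 sets of 4 libraries, 9 (14.1%) had 1 library far from the other 3, by a gap over Dixon's 95% critical share of the range. The sets were the 11 genes plotted by library, the 4 clusters and the family sum, each in 4 groups. The rule flags about 5% of independent sets of normally distributed values. Many of these values are low or 0, and a set with 3 libraries at 0 and 1 above it is always flagged. The sums also contain the plotted genes, so 14.1% cannot be read against 5%.

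Hoxa10 stood at 3.28 CPM in the second vehicle fl/fl library, against 18.6 to 18.8 CPM in the other 3, and at 28.8 CPM in the first vehicle CKO library, against 5.11 to 8.18 CPM in the others. Hoxd1 had 1.66 CPM in the third vehicle CKO library and 0 in the others. Hoxc10 was at 1.94 CPM in the third PTX fl/fl library, against 4.57 to 4.90 CPM, and at 17.6 CPM in the first vehicle CKO library, against 0.996 to 1.92 CPM. Hoxd10 was at 2.75 CPM in the second PTX CKO library, against 0 to 0.197 CPM. It was at 8.42 CPM in the first vehicle CKO library and at 0.166 CPM in the fourth vehicle fl/fl library, with 0 in the others of each group. Summed Hoxa was 99.98 CPM in the third PTX fl/fl library, against 124.5 to 128.4 CPM.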

How the results depend on the processing

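Of 123 recomputed counts of Hox genes called, 116 equalled the reported 0. For PTX against vehicle in fl/fl, limma-voom called 7 (6 higher, 1 lower). In CKO the count was 1 with title date as a block, 1 with DESeq2, 1 without the later PTX date and 2 with limma-voom. Between dates, limma-voom called 2 in PTX and DESeq2 called 1 in vehicle. Apart from limma-voom in fl/fl, the shares of all genes called under these settings are not given, so these counts are not results about the family. Leaving out 1 library at a time gave 0 to 0 calls in each comparison. With the replicate number as a block, edgeR gave 0 Hox calls in all 5 comparisons of groups, so the block changed no Hox call. Between treatments, same-numbered libraries shared only a number, and between genotypes they also shared a title date.

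Of 446 recomputed log2 fold changes of single genes, 424 kept their direction and side of the threshold, 8 passed it and 14 changed sign, none of them called and with reported values of -0.80 to 0.75. In fl/fl, Hoxc9 was 0.13 with limma-voom and 0.11 without the later PTX date, and -0.35 to 0.25 with 1 library left out. Hoxb7 was 0.12 without the earlier PTX date and -0.42 to 0.11 with 1 library left out, Hoxa7 was -0.030 without the earlier PTX date, and Hoxb2 was -1.17 to 0.20 with 1 library left out. In CKO, Hoxa7 was 0.22 with limma-voom, 0.14 without the later PTX date and -0.42 to 0.060 with 1 library left out. Hoxa9 was -0.19 and Hoxb7 -0.10 without the earlier PTX date, and Hoxb2 was -1.07 to 0.22 with 1 library left out. The cause was not tested. All 60 rescaled sums moved by less than 1 SD, as did all 80 with 1 library left out, an alternative chosen after seeing the data. The summed Hoxb difference in fl/fl (1.95 CPM) turned to between -5.23 and -0.218 CPM when any of 4 of the 8 libraries was left out. At 3 counts in a single library, a gene with 0 counts there is allowed a level of up to 0.247 to 0.384 CPM, depending on the library.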
